A study of Rattus norvegicus with 24 samples.

Results

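Lactate dehydrogenase, phosphoglycerate kinase, the E1 alpha subunit of pyruvate dehydrogenase and glyceraldehyde-3-phosphate dehydrogenase each exist in a form made in most tissues and in a form made in male germ cells. The isoenzyme set described here was listed by name and holds 8 genes: Ldha, Ldhb and Ldhc, Pgk1 and Pgk2, Pdha1 and Pdha2, and Gapdhs. Every probe set that the array annotation assigns to 1 of these symbols was taken, which gave 10 probe sets of 7 genes out of 31042 probe sets tested and 14217 genes with a probe set of a single symbol. No probe set carries the symbol Pgk2, so the germ cell phosphoglycerate kinase is not analysed here.

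The samples were testes of male Fisher 344 rats in 6 groups of 4, each hybridised to its own Affymetrix Rat230_2 array. At postnatal day 35 (PND35), 4 groups combined a fetal with a postnatal exposure to dibutyl phthalate (DBP), a plasticizer known to disturb male reproductive development: DBP-DBP, oil-DBP, DBP-oil and oil-oil, named fetal exposure first. Fetal exposure was a gavage of the dam once a day from gestational day 12 to 20 with 50 mg/kg DBP in corn oil or with corn oil alone, and postnatal exposure was a single gavage on PND35 with 500 mg/kg DBP or corn oil, 6 hours before the testis was taken. At gestational day 20 (GD20) there were 2 groups, DBP and oil, of the same fetal exposures. The DBP dams of GD20 were killed 6 hours after the last dose, no such interval is given for the oil dams, and 1 oil sample, of dam 2, is marked as pooled from several. All animals were of a strain with no genetic modification, and all testes were freed of the tunica and frozen. Samples are named by the number of the dam at GD20 and of the pup at PND35. Several pups may share a dam, which the labels do not state, so p-values measure the spread between these arrays.

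Ldha and Ldhb encode the muscle-type and heart-type subunits of lactate dehydrogenase, which interconverts pyruvate and lactate, and Ldhc encodes a subunit found in spermatocytes, spermatids and sperm. Sertoli cells, the somatic cells that nurse the germ cells, break down glucose and release lactate, which spermatocytes and round spermatids use as fuel. Pgk1 and Pdha1 lie on the X chromosome, which is silenced during male meiosis, and Pgk2 and Pdha2 are autosomal copies without introns that germ cells express from meiosis onward. Gapdhs is the sperm form of glyceraldehyde-3-phosphate dehydrogenase and is anchored to the fibrous sheath of the sperm tail. In the gene table used here (GRCr8), Pgk1 and Pdha1 were on chromosome X, Ldha, Ldhc and Gapdhs on chromosome 1, Pdha2 on chromosome 2 and Ldhb on chromosome 4.

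The 250 bases before the annotated start are shown here for the germ cell forms Ldhc, Pdha2 and Gapdhs, which rose together between ages, and for Ldha and Pdha1, the ubiquitous forms of 2 of them, from RefSeq on GRCr8 and on each gene's own strand. Of the 8 genes, 7 were matched by symbol, all but Pgk1. Capitals mark the letters TGACG, or CGTCA where the match is on the opposite strand, which is the core of the cyclic AMP response element, bound by factors such as CREB and CREM. CREM is an activator of many spermatid genes in mouse.
Ldhc, chr1:106522745-106522994, plus strand: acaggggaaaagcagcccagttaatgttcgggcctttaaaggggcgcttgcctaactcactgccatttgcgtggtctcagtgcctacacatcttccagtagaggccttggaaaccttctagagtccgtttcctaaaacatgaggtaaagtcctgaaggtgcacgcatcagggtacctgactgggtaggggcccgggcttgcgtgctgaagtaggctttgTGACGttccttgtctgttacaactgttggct
Pdha2, chr2:232547099-232547348, minus strand: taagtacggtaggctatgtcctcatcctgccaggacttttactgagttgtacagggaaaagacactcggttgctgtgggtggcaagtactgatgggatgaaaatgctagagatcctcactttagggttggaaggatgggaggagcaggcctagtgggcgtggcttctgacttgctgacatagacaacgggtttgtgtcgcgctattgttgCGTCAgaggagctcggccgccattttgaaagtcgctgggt
Gapdhs, chr1:95121056-95121305, minus strand: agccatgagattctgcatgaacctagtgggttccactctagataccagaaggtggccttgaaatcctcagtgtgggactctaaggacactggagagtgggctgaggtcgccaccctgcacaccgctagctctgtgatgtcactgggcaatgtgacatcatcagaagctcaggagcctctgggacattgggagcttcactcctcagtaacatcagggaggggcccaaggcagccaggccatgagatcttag
Ldha, chr1:106507842-106508091, plus strand: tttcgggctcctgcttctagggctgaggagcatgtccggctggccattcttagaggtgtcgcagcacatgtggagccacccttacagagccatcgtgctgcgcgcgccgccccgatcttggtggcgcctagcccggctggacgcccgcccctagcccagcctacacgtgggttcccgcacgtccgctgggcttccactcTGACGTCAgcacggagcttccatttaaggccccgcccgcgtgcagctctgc
Pdha1, chrX:38508908-38509157, plus strand: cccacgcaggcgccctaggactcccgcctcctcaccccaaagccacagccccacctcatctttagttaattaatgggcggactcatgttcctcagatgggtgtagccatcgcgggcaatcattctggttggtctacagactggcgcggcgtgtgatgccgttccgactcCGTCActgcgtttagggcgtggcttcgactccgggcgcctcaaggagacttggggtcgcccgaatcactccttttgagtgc
The core TGACG was found 31 bases before the start in Ldhc, 40 in Pdha2 and 81 in Pdha1, counted to the first base of the match, and it was not found in this window of Gapdhs, Ldhb or Pgk2. In Ldha the capitals, whose first base lies 51 bases before the start, are the full element TGACGTCA, which reads the same on both strands and contains the core once on each. The core occurs in 18.2% of the 33469 promoter windows of this length in the table and the full element in 1.59%. The GC box GGGCGG, searched on both strands, occurred 3 times in Ldha and once each in Pdha1 and Pgk2, against 30.5% of all windows. It was not found in Ldhc, Pdha2, Gapdhs or Ldhb. The core ACGTG of the hypoxia response element occurred in Ldha and Pgk2, with 1 pair of matches in each overlapping on opposite strands, against 16.6% of all windows. The AP-1 site TGACTCA was not found in the 7 windows and occurs in 4.05% of all. These matches describe the letters of the windows only, and factor binding was not measured.

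The values are linear probe-set intensities, scaled by the submitters so that every array has the same 2% trimmed mean, between 500.135 and 500.194. The median intensity was 100.8 to 114.1 on the PND35 arrays and 164.4 to 174.5 on the GD20 arrays. RNA integrity numbers were 8.2 to 8.9 at PND35 and 8.6 to 8.8 at GD20. An intensity depends on the probe sequence as well as on the transcript, so each probe set is compared only with itself in other groups. Fewer cells of a type and less RNA per cell cannot be told apart in whole testis. The labelled tissue was checked on marker lists: all 8 measured spermatocyte markers and all 11 measured spermatid markers rose between GD20 and PND35 after fetal oil and after fetal DBP. Leydig cell markers, 8 measured, fell, and of 10 Sertoli cell markers 5 rose and 5 fell. Of 5 gonocyte and spermatogonia markers, 2 rose and 2 fell after fetal oil, and 1 rose and 1 fell after fetal DBP. Of all genes, 29.5% rose and 44.0% fell after fetal oil, and 28.8% and 44.2% after fetal DBP. Spike-in controls split the arrays of 2 groups. They were low on the GD20 arrays of DBP dams 19 and 21 and high on the other 6 GD20 arrays, and they were high on all DBP-DBP arrays and on DBP-oil pups 132 and 134 and low on the other 10 PND35 arrays.

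**Figure D1:**
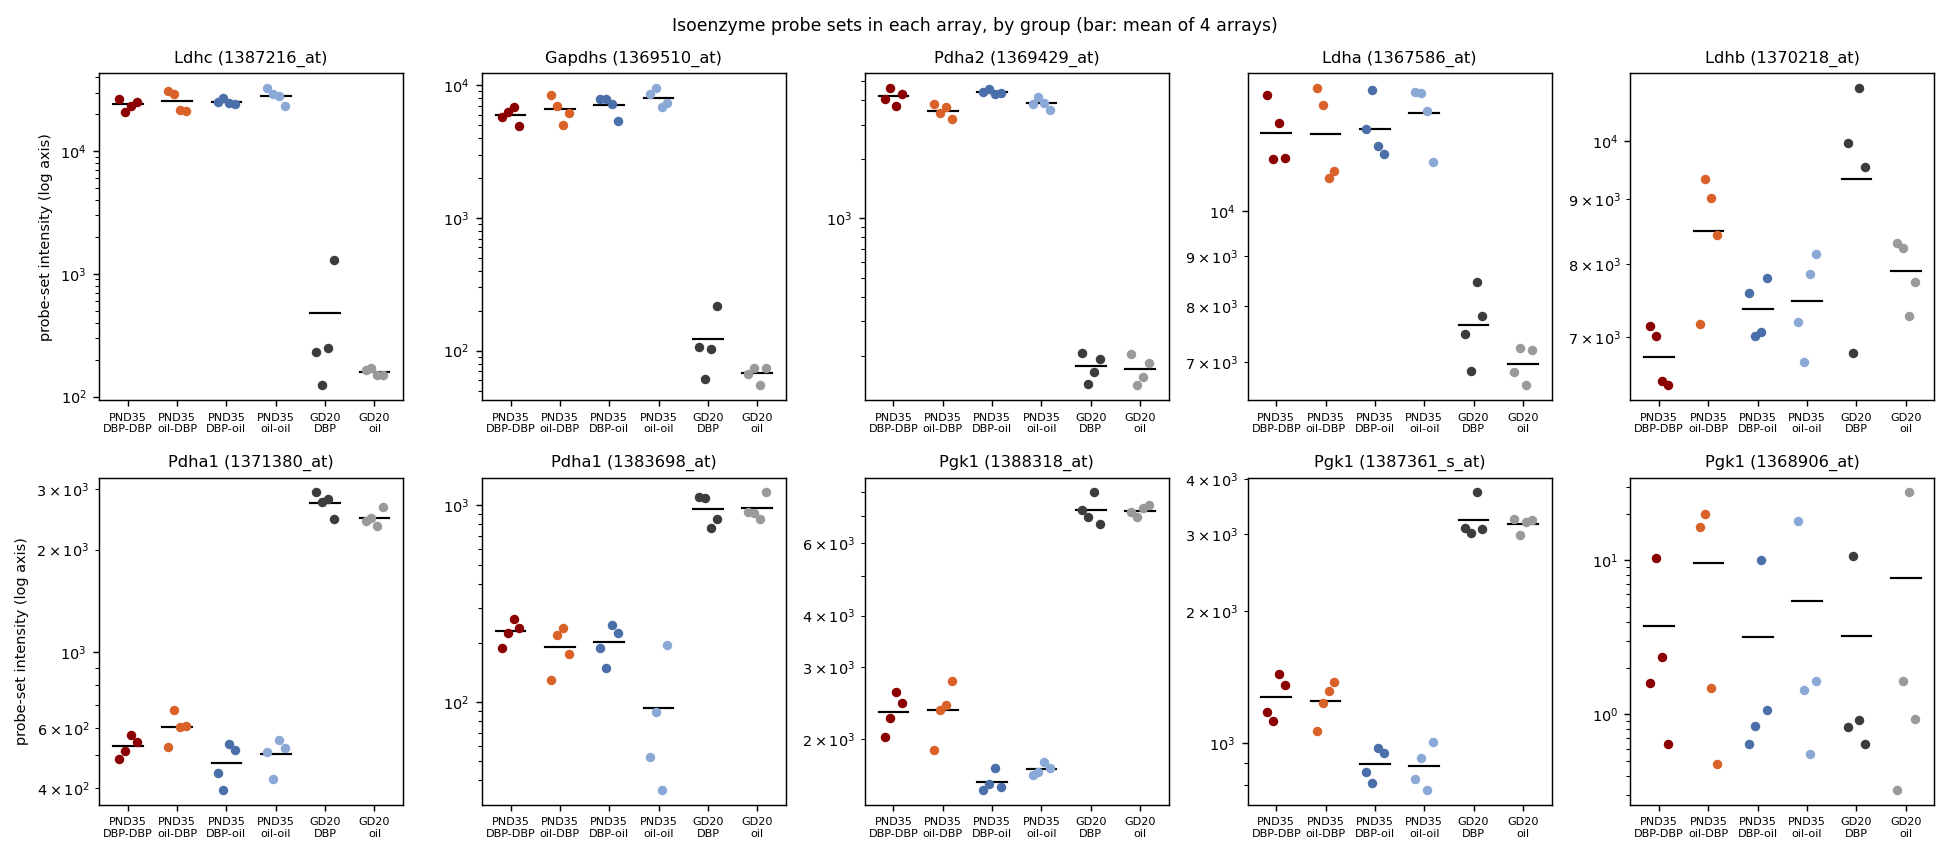
Intensity of each isoenzyme probe set on a log axis of its own range, by group, with 1 point per array and a bar at the mean of 4 arrays. Ldhc, Gapdhs and Pdha2 stand far higher in the 4 PND35 groups than in the 2 GD20 groups, Pdha1 and 2 probe sets of Pgk1 stand lower, and Pgk1 1368906_at is under 28 on every array.

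The first question was how the isoenzymes differ between the pubertal and the fetal testis. Ldhc, Gapdhs and Pdha2 rose by 178-fold, 120-fold and 22.5-fold in oil-oil testes at PND35 against oil testes at GD20, while Pgk1 and Pdha1 fell to between 0.0964 and 0.280 of their GD20 level. Ldha rose 1.80-fold, and Ldhb stood at 0.947 of its GD20 level. In oil testes at GD20, Gapdhs averaged 67.6, below the array medians of 164.4 to 174.5. Ldhc and Pdha2 were near those medians, at 159.5 and 171.4. Detection calls were not used, so these GD20 values may be background, and no exact size is read from the 3 fold changes. Of the 10 probe sets, 4 rose and 4 fell past the threshold (limma, adjusted p under 0.05 over all probe sets), against 20.5% of all probe sets higher and 42.9% lower, 63.4% in all. Arrays of the 2 groups did not overlap for 8 of the 10, against 60.1% of all probe sets. A call between these ages is thus the common outcome on the array, and the sizes of the changes are given for each member. Age goes with the extraction method: the RNA of all GD20 samples was isolated by Trizol and then cleaned on a micro column, and that of 14 of the 16 PND35 samples by a column kit alone. The exception in the oil-oil group, pup 104, was extracted with Trizol and a clean-up labelled otherwise than that of GD20. Its ratio to the mean of the GD20 oil arrays was 205 for Ldhc, 127 for Gapdhs, 22.4 for Pdha2 and 1.90 for Ldha. It was 0.913 for Ldhb, 0.206 for Pdha1 1371380_at and 0.227 for Pgk1 1388318_at. A single array of another protocol does not separate age from extraction.

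Ldhc (1387216_at) had intensities of 32706, 29310, 28126 and 23518 in oil-oil testes at PND35, against 164.4, 172.3, 151.0 and 150.1 in oil testes at GD20. After fetal DBP it had 24976, 27144, 24946 and 24097 in DBP-oil testes at PND35, against 231.1, 123.3, 249.3 and 1305 in DBP testes at GD20. Every PND35 array lay above every GD20 array, and the DBP array of dam 21 stood well above the other GD20 arrays. The log2 change between ages was 7.33 ± 0.35 (SE) after fetal oil (limma, adjusted p = 1.1e-16) and 6.25 ± 0.35 after fetal DBP (limma, adjusted p = 3.7e-15). These log2 changes are on log2(intensity + 16), which understates the change of dim probe sets.

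Gapdhs (1369510_at) had 8602, 9525, 6908 and 7294 in oil-oil testes at PND35, against 67.1, 74.2, 54.8 and 74.5 in oil testes at GD20. In DBP-oil testes at PND35 it had 7903, 7836, 7248 and 5347, against 107.0, 60.7, 103.1 and 216.3 in DBP testes at GD20. The 2 ages did not overlap with either fetal exposure, and dam 21 again had the highest GD20 value. The log2 change was 6.59 ± 0.21 after fetal oil (limma, adjusted p = 1.4e-20) and 5.79 ± 0.21 after fetal DBP (limma, adjusted p = 2.6e-19).

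Pdha2 (1369429_at), the germ cell form of the subunit that commits pyruvate to the mitochondrial citrate cycle, had 3834, 4153, 3865 and 3549 in oil-oil testes at PND35, against 203.7, 141.3, 156.6 and 184.1 in oil testes at GD20. In DBP-oil testes it had 4424, 4553, 4313 and 4365, against 205.4, 144.0, 165.6 and 191.6 in DBP testes at GD20. Its GD20 values overlapped between the fetal exposures, and that of dam 21 lay among them. The log2 change was 4.38 ± 0.10 after fetal oil (limma, adjusted p = 3.1e-23) and 4.53 ± 0.10 after fetal DBP (limma, adjusted p = 2.0e-23).

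Pdha1, the somatic counterpart of Pdha2, fell on both of its probe sets. Pdha1 1371380_at had 509.7, 427.0, 555.2 and 525.0 in oil-oil testes at PND35, against 2426, 2471, 2341 and 2663 in oil testes at GD20. In DBP-oil testes it had 442.7, 396.3, 538.6 and 517.3, against 2941, 2750, 2810 and 2452 in DBP testes at GD20. Each PND35 array lay below each GD20 array with either fetal exposure. The log2 change was -2.26 ± 0.10 after fetal oil (limma, adjusted p = 1.7e-17) and -2.50 ± 0.10 after fetal DBP (limma, adjusted p = 2.2e-18). The dimmer probe set 1383698_at gave -3.37 ± 0.27 after fetal oil and -2.16 ± 0.27 after fetal DBP (limma, adjusted p = 7.8e-12 and 5.1e-08). Both probe sets fell, by different amounts, and the oil-oil values of the dimmer one were spread from 35.9 to 194.2.

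Pgk1, which makes ATP in the step after glyceraldehyde-3-phosphate dehydrogenase, fell on 2 of its 3 probe sets. Pgk1 1388318_at had 1635, 1666, 1763 and 1702 in oil-oil testes at PND35, against 7140, 6934, 7293 and 7432 in oil testes at GD20. In DBP-oil testes it had 1508, 1559, 1705 and 1532, against 7228, 6943, 7974 and 6697 in DBP testes at GD20. Each PND35 array lay far below each GD20 array. The log2 change was -2.08 ± 0.09 after fetal oil (limma, adjusted p = 1.3e-17) and -2.18 ± 0.09 after fetal DBP (limma, adjusted p = 5.1e-18). Pgk1 1387361_s_at gave -1.83 ± 0.10 both after fetal oil and after fetal DBP (limma, adjusted p = 1.1e-15 in each), and its suffix marks probes that can match more than 1 transcript. The third probe set, 1368906_at, lay between 0.325 and 27.6 over all 24 arrays, and no level is read from it. Markers of peritubular and endothelial cells fell for 5 of 6 measured between ages with either fetal exposure. Leydig cell markers fell for 8 of 8, leukocyte markers for 4 of 7 and Sertoli cell markers for 5 of 10, with the other 5 higher. Of all genes, 44.0% were lower after fetal oil and 44.2% after fetal DBP. The summed intensity of the peritubular and endothelial list was 2834 to 3086 in oil-oil testes, against 7907 to 9575 in oil testes at GD20. That of the Leydig list was 15528 to 21197, against 58064 to 61377. The part of these cell types in the change of Pgk1 and Pdha1 was not tested.

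Ldha (1367586_at) rose by less than the germ cell forms, and the sign of Ldhb depended on the scaling of the arrays. Ldha had 13266, 13219, 12669 and 11235 in oil-oil testes at PND35, against 6846, 7245, 6632 and 7208 in oil testes at GD20. In DBP-oil testes it had 12137, 13309, 11670 and 11445, against 7485, 6864, 8458 and 7806 in DBP testes at GD20. The ages did not overlap, and the log2 change was 0.85 ± 0.08 after fetal oil (limma, adjusted p = 6.9e-10) and 0.67 ± 0.08 after fetal DBP (limma, adjusted p = 6.7e-08).

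Ldhb (1370218_at) had 7205, 6693, 7861 and 8141 in oil-oil testes at PND35, against 8303, 8239, 7277 and 7742 in oil testes at GD20. In DBP-oil testes it had 7591, 7015, 7067 and 7795, against 9959, 6811, 11006 and 9532 in DBP testes at GD20. The ages overlapped in both comparisons. The log2 change was -0.08 ± 0.11 after fetal oil (limma, adjusted p = 0.54), and it became -0.50 (adjusted p = 5.6e-05) with quantile normalization and 0.57 (adjusted p = 2.7e-05) with arrays centred on the median. After fetal DBP it was -0.32 ± 0.11 (limma, adjusted p = 0.011), 0.28 (adjusted p = 0.024) with arrays centred on the median, and -0.23 (adjusted p = 0.064) without dam 19. The call after fetal DBP was lost in 2 of 16 alternatives, with a highest adjusted p of 0.52. No direction is therefore read for Ldhb.

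The choice of scaling matters because the arrays of the 2 ages differ in shape. As deposited, the median log2 change of all probe sets was -0.31 after either fetal exposure, and relative to it the changes after fetal oil were 7.65 for Ldhc, 6.91 for Gapdhs, 4.69 for Pdha2 and 1.16 for Ldha, and -1.95 for Pdha1 1371380_at and -1.76 for Pgk1 1388318_at. Centring on the array median raised every change after fetal oil by 0.65 and after fetal DBP by 0.60, and the split of all probe sets then became 41.5% higher and 24.8% lower after fetal oil. Over all alternatives the log2 change after fetal oil lay between 6.99 and 7.99 for Ldhc, 5.94 and 7.25 for Gapdhs, 4.06 and 5.03 for Pdha2 and 0.43 and 1.502 for Ldha. It lay between -2.32 and -1.61 for Pdha1 1371380_at and between -2.36 and -1.43 for Pgk1 1388318_at. These members kept their direction and call.

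**Figure D2:**
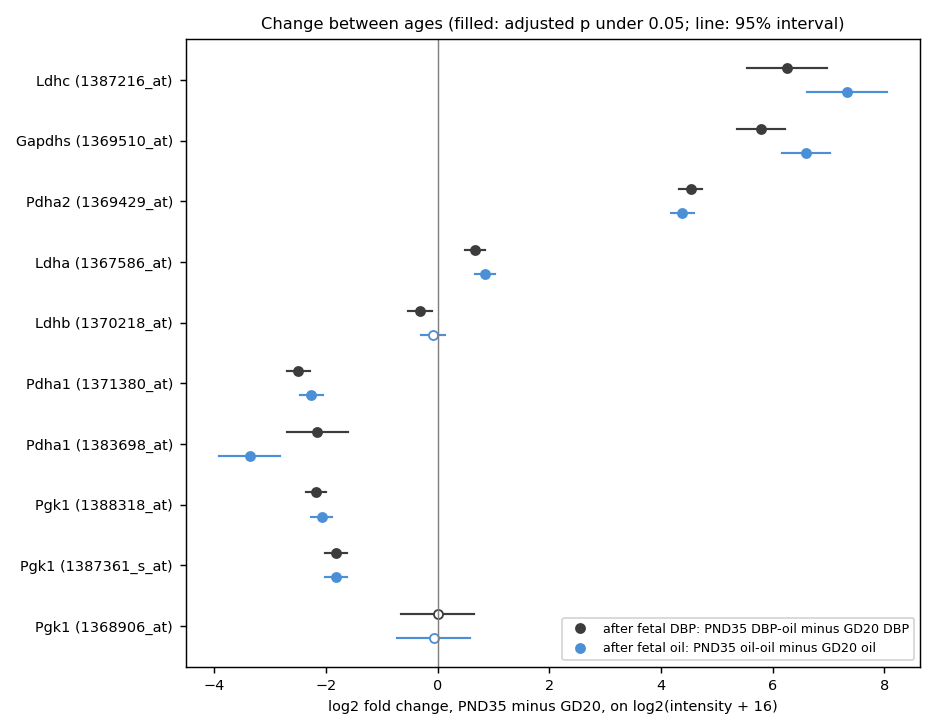
Log2 fold change between ages (PND35 minus GD20, on log2(intensity + 16)) of each isoenzyme probe set, after fetal DBP and after fetal oil, with 95% intervals and filled points where the adjusted p was under 0.05. Ldhc, Gapdhs, Pdha2 and Ldha lie to the right of 0, Pdha1 and 2 probe sets of Pgk1 to the left, and Ldhb near 0, where its sign turns with the scaling of the arrays.

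After fetal DBP, 4 of the 10 probe sets rose, against 20.6% of all, and 5 fell, Ldhb among them, against 41.4% of all, 61.9% being called in either direction. Arrays of the 2 ages did not overlap for 8 of the 10, against 56.8% of all. The test of whether the change between ages differed with fetal exposure called none of the 10 probe sets, against 0.325% of all (limma, lowest adjusted p = 0.18, with 3 members at an unadjusted p under 0.05, against 11.3% of all probe sets). The change of Ldhc after fetal DBP minus that after fetal oil was -1.08 ± 0.49 (log2, adjusted p = 0.40, 95% interval -2.09 to -0.07) and that of Gapdhs was -0.81 ± 0.29 (adjusted p = 0.27). Without the DBP array of dam 21 they were -0.41 and -0.52 (adjusted p = 0.54 and 0.45), and without dam 18 they were -1.50 and -1.05 (adjusted p = 0.096 and 0.060). Without oil-oil pup 120, the difference for Pdha1 1383698_at reached 1.60 (adjusted p = 0.013), and this was the only array whose removal gave a call in that test.

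A factor that scales a whole array cancels in the difference of a pair within it, apart from the pseudocount. The log2 intensity of Ldhc minus that of Ldha averaged 1.17 ± 0.10 in oil-oil testes at PND35 and -5.32 ± 0.09 in oil testes at GD20 (SD, n = 4 each), a shift of 6.48. After fetal DBP it averaged 1.06 ± 0.03 in DBP-oil testes at PND35 and -4.53 ± 1.35 in DBP testes at GD20, a shift of 5.59, where dam 21 made most of the GD20 spread. Pdha2 minus Pdha1 averaged 2.90 ± 0.23 in oil-oil testes and -3.74 ± 0.21 in oil testes at GD20, a shift of 6.64. After fetal DBP it averaged 3.19 ± 0.23 in DBP-oil testes and -3.85 ± 0.24 in DBP testes at GD20, a shift of 7.03. Ldhc minus Ldhb shifted by 7.41 after fetal oil and by 6.57 after fetal DBP. In each of these 6 comparisons the groups did not overlap, and the two-sided exact permutation p was 0.0286, the smallest that 4 against 4 arrays allow (0.0286 after Benjamini-Hochberg adjustment over the 6). Only shifts between groups are read, since the level of a difference depends on the probes.

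**Figure D3:**
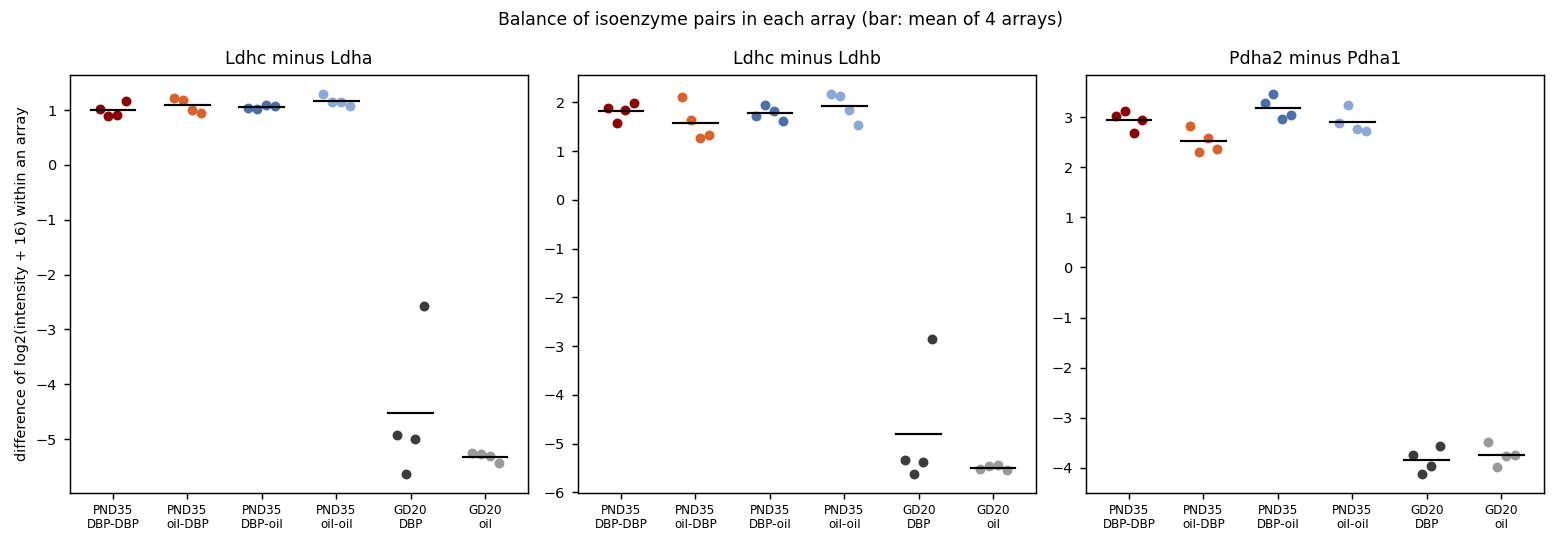
Difference of log2(intensity + 16) within an array for 3 isoenzyme pairs, by group, with 1 point per array and a bar at the mean. All PND35 arrays lie above all GD20 arrays in each pair, and dam 21 is the highest GD20 array in the pairs with Ldhc.

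The next question was whether fetal DBP changed the isoenzymes in the fetal testis itself. None of the 10 probe sets was called at GD20, against 0.441% of all probe sets (limma, 0 members at an unadjusted p under 0.05, against 11.8% of all). The arrays of DBP and oil dams overlapped for all 10, while 7.2% of all probe sets had no overlap. Ldhc averaged 477.2 ± 555 in DBP testes and 159.5 ± 10.8 in oil testes (SD, n = 4 each), a log2 change of 0.92 ± 0.50 (SE, adjusted p = 0.50). Gapdhs averaged 121.7 ± 66.4 in DBP testes and 67.6 ± 9.2 in oil testes, 0.61 ± 0.29 (SE, adjusted p = 0.44). Both averages carry dam 21, at 1305 for Ldhc and 216.3 for Gapdhs, or 8.19 and 3.20 times the oil mean. Without that dam, Ldhc averaged 201.2 ± 68.1 and Gapdhs 90.2 ± 25.7 in the remaining DBP testes (SD, n = 3). Over 16 alternatives the log2 change lay between 0.08 and 1.34 for Ldhc and between 0.22 and 0.85 for Gapdhs, without a call. Among these was a fit without DBP dams 19 and 21, the GD20 arrays with low spike-in controls.

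All 11 measured spermatid markers were also highest on the array of dam 21, and 8 of them were over 2 times the next array. Prm1, a protamine that packs sperm DNA, had 1469 on it, against 26.5 to 115.7 on the other 7 GD20 arrays. Tnp2, a transition protein, had 359.9 on it, against 3.64 to 69.8 on the others, and Odf1, of the sperm tail, had 825.5, against 55.2 to 86.7. The upper end of each of these ranges belongs to DBP dam 19, whose spike-in controls were low like those of dam 21. The summed intensity of the spermatid list was 911 to 5680 in DBP testes and 858 to 1025 in oil testes at GD20. The highest belongs to dam 21, and dam 19 had 1301. Of 8 spermatocyte markers, 4 were highest on this array and 2 were over 2 times the next array. Sycp1, of the synaptonemal complex, is dim on every GD20 array and had 44.1 on it, against 0.286 to 4.78 on the others. Hspa2 had 524.4, against 155.5 to 231.9. Brighter Sycp3 had 1955, against 1335 to 1981, and Ccna1 had 280.2, against 197.4 to 345.6, so neither was highest on it. In other lists, 4 of 10 Sertoli cell markers, 2 of 8 Leydig cell markers and 0 of 6 peritubular and endothelial markers were highest on this array. So were 6 of 22 glycolysis genes and 5 of 12 transporter genes. The share of all probe sets that were highest on it was not computed. Pdha2, at 191.6 on this array, was 1.12 times the oil mean. The part of these transcripts in the GD20 values of Ldhc and Gapdhs was not tested.

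The third question was whether DBP given on PND35 changed the isoenzymes within 6 hours. In mean deposited intensity, Pgk1 rose by 1.39-fold after fetal oil and by 1.48-fold after fetal DBP on probe set 1388318_at. On 1387361_s_at it rose by 1.41-fold and 1.42-fold. The calls and log2 changes are instead on arrays centred on their median, where the changes after fetal oil and after fetal DBP are 0.40 and 0.54 on the first and 0.43 and 0.47 on the second. After fetal oil, 3 of the 10 probe sets were called, all higher, against 8.92% of all probe sets called, 4.77% higher and 4.15% lower. After fetal DBP, 2 were called, both higher, against 5.23% of all called, 3.64% higher and 1.58% lower. The germ cell forms were not called in either comparison on all arrays, and Gapdhs was called lower after fetal oil when oil-DBP pup 105 was left out (-0.49, adjusted p = 0.030).

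Pgk1 1388318_at had 1881, 2353, 2423 and 2774 in oil-DBP testes, against 1635, 1666, 1763 and 1702 in oil-oil testes. It had 2030, 2249, 2606 and 2450 in DBP-DBP testes, against 1508, 1559, 1705 and 1532 in DBP-oil testes. Each DBP array lay above each oil array in both comparisons. The log2 change was 0.40 ± 0.09 after fetal oil (limma, adjusted p = 0.010) and 0.54 ± 0.09 after fetal DBP (limma, adjusted p = 8.6e-04). Pgk1 1387361_s_at had 1066, 1235, 1315 and 1373 in oil-DBP testes, against 826.3, 921.6, 781.1 and 1001 in oil-oil testes, and changed by 0.43 ± 0.10 (adjusted p = 0.0096). It had 1176, 1120, 1435 and 1356 in DBP-DBP testes, against 856.2, 808.8, 971.1 and 949.0 in DBP-oil testes, and changed by 0.47 ± 0.10 (adjusted p = 0.0050). Arrays of the groups did not overlap for these 2 probe sets in either comparison, against 10.8% of all probe sets after fetal oil and 12.0% after fetal DBP.

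Without the 2 Trizol arrays, oil-oil pup 104 and oil-DBP pup 115, the Pgk1 changes after fetal oil were 0.35 and 0.36 and were no longer called (adjusted p = 0.069 and 0.074). The change of 1388318_at was 0.31 (adjusted p = 0.053) without oil-DBP pup 121, and its adjusted p was 0.051 when eBayes was run without an intensity trend. After fetal DBP, the DBP-oil pups with high spike-in controls, 132 and 134, had 1705 and 1532 on 1388318_at, against 2030 to 2606 in the DBP-DBP pups, which all had high controls too. When the class of spike-in level entered the fit, an alternative chosen after the data were seen, 1387361_s_at changed by 0.41 (adjusted p = 0.093) and 1388318_at kept its call.

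Of all genes, 6.18% rose and 5.99% fell with postnatal DBP after fetal oil, and 5.16% and 2.17% after fetal DBP. Markers of peritubular and endothelial cells rose for 3 of 6 measured after fetal oil and 4 of 6 after fetal DBP, and the rest were not called. Their summed intensity was 4088 to 4790 in oil-DBP testes, against 2834 to 3086 in oil-oil testes, and 4180 to 4459 in DBP-DBP testes, against 2434 to 3559 in DBP-oil testes. Leukocyte markers rose for 1 of 7 after fetal oil and 2 of 7 after fetal DBP. Of the 11 spermatid markers, 6 fell after fetal oil and 0 after fetal DBP, and of the 8 Leydig cell markers 1 rose and 4 fell after fetal oil and 2 fell after fetal DBP. The part of these cell types in the Pgk1 change was not tested.

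Pdha1 gave a split answer. Probe set 1383698_at had 129.2, 219.4, 238.9 and 175.8 in oil-DBP testes, against 52.4, 89.4, 35.9 and 194.2 in oil-oil testes, and changed by 1.04 ± 0.30 (limma, adjusted p = 0.036). The groups overlapped through oil-oil pup 120, and the call was lost in 8 of 19 alternatives, among them the removal of pups 104, 110, 111, 114, 115 or 121 one at a time. The brighter probe set 1371380_at had 527.3, 679.7, 604.5 and 609.4 in oil-DBP testes, against 509.7, 427.0, 555.2 and 525.0 in oil-oil testes. Its change was 0.19 ± 0.10 (adjusted p = 0.27). After fetal DBP neither probe set was called (0.16 ± 0.30 and 0.15 ± 0.10, adjusted p = 0.88 and 0.58).

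For the germ cell forms, acute DBP after fetal oil gave -0.22 ± 0.12 for Ldhc, -0.36 ± 0.16 for Gapdhs and -0.18 ± 0.09 for Pdha2 (log2 ± SE, limma, adjusted p = 0.30, 0.16 and 0.19). The 95% intervals were -0.48 to 0.04 for Ldhc, -0.68 to -0.03 for Gapdhs and -0.36 to -0.0049 for Pdha2. After fetal DBP the values were -0.10 ± 0.12 for Ldhc, -0.26 ± 0.16 for Gapdhs and -0.10 ± 0.09 for Pdha2 (adjusted p = 0.80, 0.49 and 0.66). Ldhc ranged from 21179 to 30972 in oil-DBP testes, against 23518 to 32706 in oil-oil testes, and from 21063 to 26503 in DBP-DBP testes, against 24097 to 27144 in DBP-oil testes. Ldha changed by -0.14 ± 0.09 after fetal oil and -0.03 ± 0.09 after fetal DBP, and Ldhb by 0.12 ± 0.09 and -0.14 ± 0.09, all without a call.

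Fetal DBP gave no call among the 10 probe sets on PND35. Of all probe sets, 0.00322% were called when the PND35 dose was oil, 0% when it was DBP, and 0% in the interaction of both exposures (limma, 2, 2 and 1 members at an unadjusted p under 0.05, against 7.41%, 8.99% and 4.72% of all). Pdha2 had 4313 to 4553 in DBP-oil testes, against 3549 to 4153 in oil-oil testes, with no overlap of the deposited intensities. The log2 difference was 0.18 ± 0.09 (limma, adjusted p = 0.67) on arrays centred on their median. On that scale the groups overlap: DBP-oil pup 132 (4313, array median 107.5) falls below oil-oil pup 110 (4153, array median 100.8). In DBP-DBP testes Pdha2 had 3740 to 4612, against 3224 to 3811 in oil-DBP testes, a difference of 0.26 ± 0.09 (adjusted p = 0.34). Ldhb had 6417 to 7152 in DBP-DBP testes, against 7176 to 9333 in oil-DBP testes, with no overlap of the deposited intensities. Its difference was -0.29 ± 0.09 (adjusted p = 0.29). Pdha1 1383698_at had 188.6, 148.3, 247.6 and 223.8 in DBP-oil testes, against 52.4, 89.4, 35.9 and 194.2 in oil-oil testes. The groups overlapped through oil-oil pup 120, and the difference was 1.17 ± 0.30 (limma, adjusted p = 0.25). Deposited intensities of the groups had no overlap for 1 member when the PND35 dose was oil, against 4.12% of all probe sets, and for 1 when it was DBP, against 5.17%. In the comparison with a PND35 dose of DBP, exposure cannot be told apart from the spike-in class. The balance of the 3 pairs was compared in 15 exposure comparisons, with shifts between -0.38 and 0.79 (lowest two-sided exact permutation p = 0.0571, adjusted p = 0.43). A single pair at the smallest p that 4 against 4 arrays allow, 0.0286, would adjust to 0.43 over the 15, so these tests could not have called 1 pair alone.

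**Figure D4:**
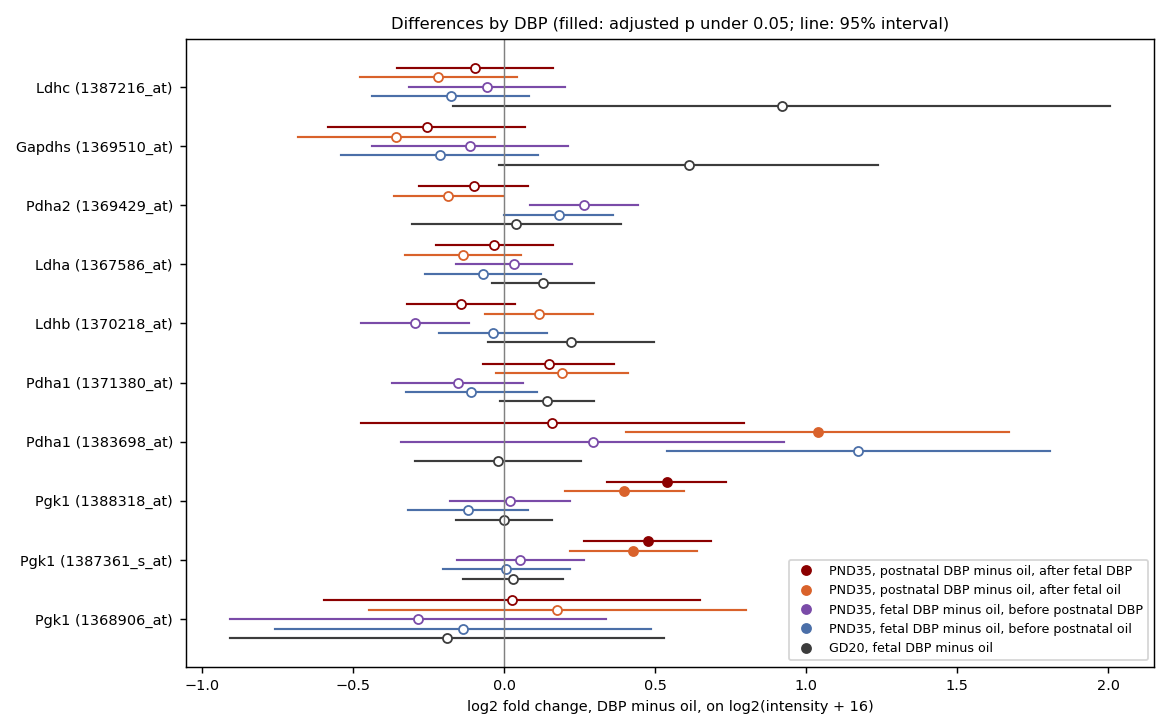
Log2 fold change with DBP (DBP minus oil, on log2(intensity + 16)) of each isoenzyme probe set in 5 comparisons, with 95% intervals and filled points where the adjusted p was under 0.05. Pgk1 1388318_at and 1387361_s_at are filled on the right in both comparisons of postnatal DBP, and Pdha1 1383698_at in the one after fetal oil.

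Other genes of the pathway were called in both directions between ages. Of 28 listed genes of glycolysis 22 were measured, of which 7 rose and 11 fell in oil-oil testes at PND35 against oil testes at GD20. Of all 14217 genes, 29.5% were called higher and 44.0% lower in that comparison, and the glycolysis counts are near those shares. The median log2 change was -0.18, against -0.24 over all genes, and with arrays centred on the median the counts were 12 and 5. That centring gave 41.5% of all probe sets higher and 24.8% lower. Pgam2, the muscle-type phosphoglycerate mutase, which is also found in testis, averaged 2614 ± 466 in oil-oil testes and 4.09 ± 3.67 in oil testes at GD20 (SD, n = 4 each), a log2 change of 7.03 ± 0.27 (SE). Its GD20 intensity is below the pseudocount, so the size is set in part by it, and the change lay between 5.28 and 9.21 over the alternatives. Gpi, which turns glucose-6-phosphate into fructose-6-phosphate, averaged 1562 ± 132 in oil-oil testes and 4495 ± 97.5 in oil testes at GD20, a log2 change of -1.52 ± 0.09. Eno2, the neuron-type enolase, changed by -1.77 ± 0.19, Hkdc1, a hexokinase-like gene, by -2.26 ± 0.19, Adpgk, the ADP-dependent glucokinase, by -1.44 ± 0.17 and Pfkfb1, which makes and breaks the activator of phosphofructokinase, by -1.48 ± 0.30. All 6 were called (limma, highest adjusted p = 1.0e-04).

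Of 15 genes that act on pyruvate and lactate 13 were measured, of which 6 rose and 5 fell after fetal oil (median 0.17). Of all genes, 29.5% were higher and 44.0% lower (median -0.24). With arrays centred on the median 8 of the 13 rose and 1 fell, against 41.5% and 24.8% of all probe sets. Pdhb, the partner subunit of Pdha1 and Pdha2 in pyruvate dehydrogenase E1, averaged 8218 ± 514 in oil-oil testes and 2363 ± 109 in oil testes at GD20, a log2 change of 1.79 ± 0.08 (limma, adjusted p = 2.7e-17). Mpc2, a subunit of the mitochondrial pyruvate carrier, rose by 1.93 ± 0.07. Among the kinases that switch pyruvate dehydrogenase off, Pdk2 rose by 2.35 ± 0.12 and Pdk1 changed by -1.67 ± 0.16. The phosphatase Pdp2 changed by -1.10 ± 0.26 and Ldhd, the mitochondrial D-lactate dehydrogenase, by -1.21 ± 0.29. All of these were called (highest adjusted p = 6.1e-04), but the calls of Pdp2 and Ldhd were lost with arrays centred on the median (-0.45 and -0.55, adjusted p = 0.14 and 0.097) and with quantile normalization (-0.48 and -0.59, adjusted p = 0.15 and 0.099).

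Of 12 transporters of glucose, lactate and pyruvate and their partners, all measured, 6 rose and 3 fell after fetal oil (median 0.52). The shares of all genes were 29.5% higher and 44.0% lower (median -0.24). With arrays centred on the median 8 of the 12 rose and 2 fell, against 41.5% and 24.8% of all probe sets. Slc2a3, the high-affinity glucose carrier GLUT3, averaged 12821 ± 1329 in oil-oil testes and 259.1 ± 15.9 in oil testes at GD20, a log2 change of 5.54 ± 0.17 (limma, adjusted p = 5.9e-21). Slc16a7, the monocarboxylate carrier MCT2, averaged 2676 ± 404 in oil-oil testes and 136.9 ± 22.7 in oil testes at GD20, 4.14 ± 0.16. Slc2a8, the glucose carrier GLUT8, rose by 3.39 ± 0.13, Emb, the partner protein of MCT2, by 2.25 ± 0.13, and Slc16a1, the carrier MCT1, by 1.15 ± 0.10. Slc2a1, the widely expressed glucose carrier GLUT1, fell to 452.9 ± 54.0 in oil-oil testes, against 884.2 ± 50.7 in oil testes at GD20. After fetal DBP the counts were 6 higher and 10 lower for glycolysis, 7 and 5 for pyruvate and lactate, and 6 and 2 for transport, against 28.8% of all genes higher and 44.2% lower.

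**Figure D5:**
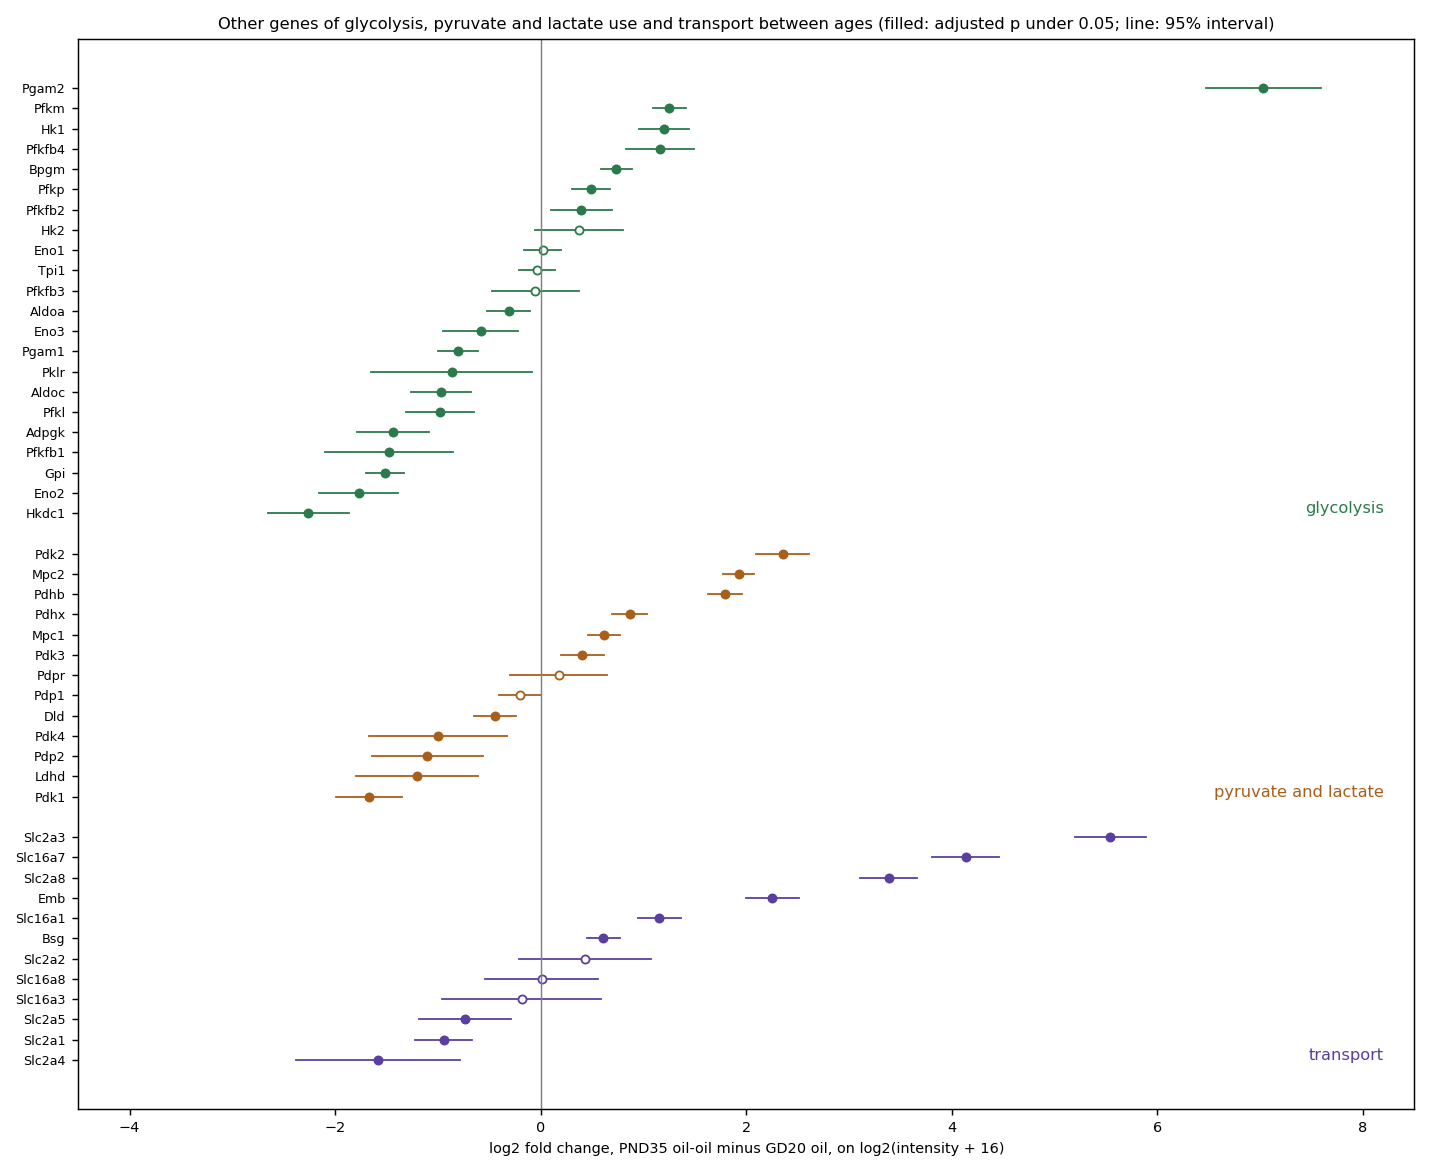
Log2 fold change between ages after fetal oil (PND35 oil-oil minus GD20 oil, on log2(intensity + 16)) of the other measured genes of glycolysis, of pyruvate and lactate use and of transport, with 95% intervals and filled points where the adjusted p was under 0.05. Pgam2 at 7.03, with a GD20 intensity below the pseudocount, Slc2a3 at 5.54 and Slc16a7 at 4.14 lie farthest to the right. Genes near 0 can change sign with the scaling of the arrays.

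After postnatal DBP the lists held 1 called gene higher each, and several of their counts depended on single arrays. After fetal oil 1 of 22 glycolysis genes rose and 3 fell, 1 of 13 pyruvate and lactate genes rose and 2 fell, and 1 of 12 transporters rose and 1 fell, against 6.18% of all genes higher and 5.99% lower. Without oil-DBP pup 105 the lower genes numbered 8, 6 and 3, and without oil-DBP pup 121 they numbered 0, 1 and 0. After fetal DBP 1 and 0 glycolysis genes, 1 and 1 pyruvate and lactate genes and 1 and 1 transporters rose and fell, against 5.16% of all genes higher and 2.17% lower. As arrays were left out, the count of lower genes lay between 0 and 1 for pyruvate and lactate and for transport and stayed at 0 for glycolysis. The count of higher glycolysis genes lay between 0 and 1. Pdp1, the phosphatase that switches pyruvate dehydrogenase on, averaged 2817 ± 496 in oil-DBP testes and 1311 ± 137 in oil-oil testes, a log2 change of 1.02 ± 0.10 (limma, adjusted p = 5.9e-07). It averaged 2619 ± 302 in DBP-DBP testes and 1393 ± 67.6 in DBP-oil testes, 0.88 ± 0.10 (adjusted p = 5.1e-06). Pfkfb3, which makes the activator of phosphofructokinase, averaged 396.0 ± 74.0 in oil-DBP testes and 175.1 ± 17.6 in oil-oil testes, 1.03 ± 0.20 (adjusted p = 0.0018). It averaged 439.1 ± 88.6 in DBP-DBP testes and 255.3 ± 88.4 in DBP-oil testes, 0.78 ± 0.20 (adjusted p = 0.022, and 0.44 with spike-in level in the fit). That second Pfkfb3 call was also lost without DBP-DBP pup 133 or 135 or DBP-oil pup 123 (adjusted p = 0.082, 0.10 and 0.084) and without the intensity trend (0.063). Emb rose by 0.63 ± 0.13 after fetal oil and by 0.62 ± 0.13 after fetal DBP (adjusted p = 0.0024 and 0.0037, the second 0.10 with spike-in level in the fit). At GD20 none of the 22, 13 and 12 genes was called with DBP.

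Among the genes that fell after postnatal DBP, Pdp2, the second phosphatase of pyruvate dehydrogenase, averaged 38.7 ± 28.0 in oil-DBP testes and 105.3 ± 13.3 in oil-oil testes (SD, n = 4 each), a log2 change of -1.38 ± 0.32 (limma, adjusted p = 0.0084) that stayed called in 19 of 19 alternatives and lay between -1.91 and -0.81 over them. Aldoc, the brain-type aldolase, averaged 184.9 ± 45.7 in oil-DBP testes and 292.4 ± 25.003 in oil-oil testes, -0.71 ± 0.17 (adjusted p = 0.011, and 0.051 without oil-DBP pup 121). Mpc2 changed by -0.28 ± 0.08 after fetal oil (adjusted p = 0.027), and its call was lost in 9 of 19 alternatives. After fetal DBP, Ldhd averaged 26.2 ± 17.4 in DBP-DBP testes and 77.2 ± 17.6 in DBP-oil testes, -1.25 ± 0.34 (adjusted p = 0.029), and its call was lost in 6 of 19 alternatives. Slc16a1 changed by -0.35 ± 0.10 after fetal DBP (adjusted p = 0.037), and its call was lost in 10 of 19. Pdp2 and Ldhd are dim at PND35, where the size of a log2 change depends on the pseudocount. Detection calls were not used, so no exact size is read for them.

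Across the 16 PND35 arrays the members are described by correlations of log2 values centred on each array's median. Ldha followed Ldhc with r = 0.86 and Gapdhs with 0.77, and Ldhc followed Gapdhs with 0.69. Pgk1 followed Pdha1 with 0.64 and ran against Ldhc with -0.58, and Pdha1 ran against Pdha2 with -0.79. Pdha2 had r = 0.15 with Ldhc and 0.20 with Gapdhs, and Ldhb had -0.19 with Ldhc, -0.12 with Gapdhs and -0.02 with Pgk1. These arrays share exposure groups, extraction and scaling, so the correlations are a description of 16 arrays. The genes most like Gapdhs over these arrays were Trim17 (r = 0.97), Spag4 (0.97) and 1700013G24Rikl (0.97), and those most like Ldhc were Gpx4 (0.92), Rangrf (0.91) and Cox7b2 (0.91). Those most like Pgk1 1388318_at were Tpm1 (0.96), Cd200 (0.96) and Wipi1 (0.96), and Wipi1 was also among the 3 most like 1387361_s_at (0.95). For Pdha2 they were Trim14 (0.91), Dnm3 (0.91) and Prpsap2 (0.90), for Pdha1 1371380_at Otud4 (0.92), Minpp1 (0.90) and Pdyn (0.89), for Ldha C3h20orf96 (0.95), Stard6 (0.92) and Haghl (0.91), and for Ldhb Spg21 (0.87), Crebzf (0.87) and Haus7 (0.86). These are the highest of 14217 genes, so a high r comes in part from the choice. Pgk1 1368906_at, from which no level is read, still reached 0.81 with Kel, 0.78 with Fras1 and 0.77 with RatNP-3b.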

How the data were processed

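Testis RNA of 24 samples in 6 groups of 4 was measured on Rat230_2 arrays. Linear probe-set intensity was deposited, scaled to a common trimmed mean as its values show, and GCOS 1.0 is the tool named in the submitters' processing notes. Which algorithm summarized the probes stays not given in the sources used here, and detection calls were not used here. Probe sets were named from the platform annotation, in which 20826 have 1 symbol, 436 several and 9780 none.

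A pseudocount of 16 was added before log2, and 57 control probe sets were left out, which leaves 31042. Limma 3.58.1 in R 4.3.3 (lmFit, eBayes with an intensity trend, Benjamini-Hochberg over 31042 probe sets, threshold 0.05) was fitted on the 24 arrays as deposited for the comparisons of age, on the 8 GD20 arrays as deposited, and on the 16 PND35 arrays centred on each array's median. In all 9 comparisons were made, 2 of them interactions. Errors are SE of log2 changes and SD of intensities. Overlap of probe-set values between groups and fold ratios of means are read on the deposited intensities, also at PND35. Balances of pairs were tested with exact permutation tests, two-sided. The planned Pgk2 and Pgk1 pair could not be computed, since no probe set is named Pgk2. The fits were tested on simulated data. Depth has no meaning for arrays, and 4 arrays a group limit the precision.

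All member probe sets are reported. For pathway lists, up to 6 genes a list are named in the age comparison after fetal oil and up to 4 in the others, by the size of change among genes called without overlap between groups. For these and the likeness of genes, the probe set with the highest mean stands for a gene (14217 genes). The 3 most correlated genes are named per member. Marker lists covered spermatocytes, spermatids, gonocytes and spermatogonia, Sertoli, Leydig, peritubular and endothelial cells, leukocytes, and blood and epididymis. The members and lists were chosen with earlier results of these data known. Alternatives were other scalings, pseudocounts of 1 and 64, a dim filter at a mean intensity of 64, eBayes without trend, single-array removal, extraction method and adjacent pup numbers. At GD20, DBP dams 19 and 21 were also left out together.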

Additional observations from a re-analysis of the deposited data

Results flagged for a closer look

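Of 60 sets of 4 arrays, 6 held an array that stood apart from the other 3 by more than Dixon's 95% critical value for the gap over the range, and chance alone gives about 1 in 20. One was Ldhc on the GD20 DBP array of dam 21, at 1305, against 123.3 to 249.3 on the other 3 DBP arrays, with a gap over range of 0.893. The spermatid markers were high on that same array, as given above. Pgk1 1387361_s_at on the DBP array of dam 19 had 3732, against 3019 to 3090 on the other 3 DBP arrays. The other 4 were of Pgk1 1368906_at, which lies under 28 on every array: 10.1 on DBP-oil pup 132, 17.97 on oil-oil pup 104, 10.6 on the DBP array of dam 18 and 27.6 on the oil array of dam 4. Differences among such dim values have no readable order.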

How the results depend on the processing

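Of 1731 values of the 10 probe sets under alternatives, 1710 stayed on their side of the threshold and 21 did not, among them 2 reversals, both of Ldhb between ages with arrays centred on the median (0.57 after fetal oil and 0.28 after fetal DBP). That centring adds the same log2 amount to every probe set. Of 1359 values that were not called, 102 changed sign under an alternative. The count of called members after postnatal DBP and fetal oil was 3, and it was 1 with eBayes without trend and 0 without the 2 Trizol arrays. It was 1 to 4 when each array was left out in turn, and the cause was not tested. After postnatal DBP and fetal DBP it was 2, and 1 with spike-in level in the fit. Leaving out each array in turn gave 0 to 1 for the test of age by fetal DBP and 0 to 1 for fetal DBP before postnatal oil, the call in both being Pdha1 1383698_at without oil-oil pup 120 (1.60, adjusted p = 0.013, and 1.56, adjusted p = 0.017). It gave 8 for the age comparison after fetal oil and 8 to 9 after fetal DBP, 2 for postnatal DBP after fetal DBP, and 0 for GD20, for fetal DBP at a PND35 dose of DBP and for the interaction. The shifts of the pairs between ages lay between 6.44 and 6.52, 7.33 and 7.54, and 6.53 and 6.73 after fetal oil, and 5.22 and 6.24, 6.30 and 7.22, and 6.94 and 7.12 after fetal DBP, for Ldhc over Ldha, Ldhc over Ldhb and Pdha2 over Pdha1. With adjacent pup numbers as a replicate block, whose consensus correlation was 0.0544, the counts stayed at 3 and 2. The signal of dim probe sets limits Pgk1 1368906_at and, at PND35, Pdha1 1383698_at.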

Other observations

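The chromosome of the somatic forms was set beside the change between ages, a comparison chosen after the data were seen. After fetal oil, 445 genes on chromosome X had a median log2 change of -1.09, 67.0% of them lower and 13.9% higher, and 13718 genes on other chromosomes had a median of -0.21, 43.3% lower and 30.0% higher. After fetal DBP the X-linked genes had a median of -1.13 and the others -0.24. Of the X-linked genes, 22.2% had a lower log2 change than Pgk1 1388318_at and 18.2% a lower one than Pdha1 1371380_at after fetal oil, so both members lie in the lower part of the X-linked distribution. Of the genes on other chromosomes, 79.9% had a lower log2 change than Ldha, on chromosome 1. The shares higher and lower depend on the scaling of the arrays and the difference of the medians does not for centring. Genes are not independent replicates, and no test was made.

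After postnatal DBP the X-linked genes had a median of -0.01 after fetal oil and -0.06 after fetal DBP, and 88.5% and 93.3% of them had a lower log2 change than Pgk1.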
